A study of Mus musculus with 8 samples.

Results

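The transcripts of 10 glycolysis genes were measured in mouse embryonic stem cells (mESCs) with and without morphine: Slc2a1, Hk1, Hk2, Gpi1, Pfkl, Pfkp, Aldoa, Pgk1, Pkm and Ldha. They were chosen by name, as the loci of the RNA-Seq count table whose most frequent gene name is one of these symbols, and each of the 10 genes was found among the 44396 loci of the table. All 10 passed the filter on low counts, as did 20350 loci in all. The cells were one line of mESCs that carry GFP under the Oct4 promoter, grown on gelatin without feeder cells, and all groups shared this background. The paper's methods describe a LIF + 2i culture condition, with leukaemia inhibitory factor and the inhibitors PD0325901 and CHIR99021. Control cells received the NaCl vehicle and treated cells 10 µM morphine, each for 24 h. Each condition gave 2 RNA-Seq libraries (25081266 to 29531096 counts) and 2 ChIP-Seq libraries of H3K27me3, the Polycomb mark of gene repression. The labels do not say whether the RNA-Seq replicates are separate cultures, so their spread may be technical, and p-values measure only the spread between these libraries.

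Glycolysis turns glucose into pyruvate in the cytosol and yields ATP without oxygen. Slc2a1 encodes GLUT1, which brings glucose into the cell; Hk1 and Hk2 encode hexokinases, which trap it as a phosphate; and Gpi1 encodes the isomerase that follows. Pfkl and Pfkp encode the liver-type and platelet-type subunits of phosphofructokinase, the committed step. Aldoa then splits the sugar, Pgk1 catalyses the first step that makes ATP, Pkm encodes the muscle-type pyruvate kinases, and Ldha makes lactate from pyruvate. Pluripotent stem cells are known for a high rate of glycolysis. HIF1 and MYC are known regulators of many of these genes, and the letters they bind share a common core.

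The labelled cell type was checked on markers. All 10 pluripotent stem cell markers were tested, and their summed level ran from 5382 to 5539 CPM (counts scaled to the same TMM-normalized library size) over the 4 RNA-Seq libraries. Of 8 fibroblast markers, 4 passed the filter, with a summed level over all 8 of 18.1 to 20.6 CPM. The 12 markers of differentiated lineages summed to 51.7 and 48.5 CPM in the controls and 54.3 and 54.4 CPM after morphine. Of these 12, 8 were tested and none was called by edgeR, with 6 positive and 2 negative log2 fold changes (median 0.15). In 5 of the 8 both morphine libraries exceeded both controls, as in 26.0% of all tested loci. Of the 10 pluripotency markers, none was called by edgeR, 8 had a negative and 2 a positive log2 fold change (median −0.05), and at an unadjusted p under 0.05 there were 2 lower and 1 higher. The higher one, Pou5f1 (Oct4), averaged 1227 CPM in the controls and 1439 CPM after morphine (log2 fold change 0.23 ± 0.05 SE, edgeR adjusted p = 0.052), and Tfcp2l1 had −0.19 ± 0.06 (edgeR adjusted p = 0.088). Whether cell composition has a part in the values of the glycolysis genes was not tested, and in these bulk libraries fewer cells and less RNA per cell cannot be told apart.

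The letters ACGTG or GCGTG, the core of the sites that HIF binds, were searched on both strands of the 250 bases upstream of 1 start site per gene (RefSeq, GRCm38.p6, which has the coordinates of mm10). All 10 genes matched a promoter in the RefSeq table, and the other annotated starts of Hk1, Hk2, Pfkp, Aldoa, Pkm and Ldha were not searched. The core was found 3 times upstream of Pfkp and Ldha, 2 times upstream of Slc2a1, Hk2 and Pgk1, once upstream of Pfkl, and not in these windows of Hk1, Gpi1, Aldoa and Pkm. Of all 32851 promoters of this length, 38.6% held the core at least once and 4.651% held it at least 3 times. Both strings contain CG, and the median promoter held 6 CG. The windows with the core held 13 (Slc2a1, Pfkl) to 25 (Hk2, Ldha), so these shares are not those of promoters alike in CG. Aldoa, with 0 CG, could not hold the core, and Hk1 had 1 CG, Gpi1 14 and Pkm 21. Both matches of CACGTG, the E-box that MYC binds, lay upstream of Ldha. The E-box contains ACGTG, so these are also among its 3 core matches, and 6.021% of all promoters held an E-box. A match is a string of letters and not evidence of binding. Shown are the promoters of Hk2, Pfkl and Ldha. That of Hk2 had an H3K27me3 peak at its upstream end. In edgeR's quasi-likelihood fit, described below, Hk2 had the lowest and Pfkl the highest fold change. That of Ldha had 3 core matches, as did Pfkp, and both E-boxes. Capitals mark the core on either strand, with CACGT and CACGC as its reverse forms. The Hk2 stretch is chr6:82774455-82774704 on the minus strand, the Pfkl stretch is chr10:78009808-78010057 on the minus strand, and the Ldha stretch is chr7:46845554-46845803 on the plus strand, each written 5′ to 3′ up to the last base before the transcript.
Hk2: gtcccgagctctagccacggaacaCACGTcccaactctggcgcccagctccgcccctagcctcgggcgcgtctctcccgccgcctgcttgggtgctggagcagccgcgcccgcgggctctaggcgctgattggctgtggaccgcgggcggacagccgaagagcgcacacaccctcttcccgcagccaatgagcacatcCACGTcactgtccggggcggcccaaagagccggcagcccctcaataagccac
Pfkl: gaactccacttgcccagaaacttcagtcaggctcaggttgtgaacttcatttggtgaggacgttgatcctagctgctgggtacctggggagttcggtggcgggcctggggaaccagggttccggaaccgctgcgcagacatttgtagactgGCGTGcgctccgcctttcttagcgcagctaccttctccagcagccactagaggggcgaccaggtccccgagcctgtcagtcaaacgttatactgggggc
Ldha: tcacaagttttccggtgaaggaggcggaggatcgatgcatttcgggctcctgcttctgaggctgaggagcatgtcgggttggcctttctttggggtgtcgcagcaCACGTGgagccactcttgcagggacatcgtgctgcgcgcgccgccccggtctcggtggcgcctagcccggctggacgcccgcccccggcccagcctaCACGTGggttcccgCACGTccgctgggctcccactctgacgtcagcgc

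In the control cells the 10 genes spanned a wide range of levels. To compare genes, CPM were divided by the exon length of each assembled locus in kb. Aldoa stood highest, at 435 ± 13.0 CPM per kb (mean ± SD, n = 2), followed by Pkm at 293 ± 7.59 and Ldha at 111 ± 4.06 CPM per kb. The middle of the range held Hk2 (97.7 ± 6.31 CPM per kb), Gpi1 (91.2 ± 4.09), Slc2a1 (72.3 ± 1.36) and Pgk1 (64.7 ± 0.29). The phosphofructokinase genes Pfkp (24.9 ± 0.20 CPM per kb) and Pfkl (19.8 ± 1.15) and the hexokinase gene Hk1 (16.7 ± 0.61) stood lowest. Even Hk1 lay above 76.1% of the tested loci with a gene name on this scale, and Aldoa above 99.6%.

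Neighbours in this order were separate in the control libraries except for Hk2 and Gpi1. Hk2 had 102 and 93.3 CPM per kb in control replicates 1 and 2, and Gpi1 had 88.3 and 94.1. In control replicate 2 and in both morphine libraries Gpi1 stood above Hk2, and the other 8 genes kept their places in all 4 libraries. The order depends on the length used. The assembled Pfkp locus has 10.1 kb of exon against 2.68 kb in the annotated mRNA, and per kb of that mRNA Pfkp reached 93.3 CPM in the controls, close to Hk2 at 97.7. On the same scale Gpi1 reached 168 CPM per kb, above Ldha at 134, and Pfkl (30.7) stood below Hk1 (34.7), whereas Aldoa (512) and Pkm (468) stayed at the top.

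Several of these genes have near-identical copies elsewhere in the genome, and how the authors counted reads with more than 1 alignment is not given in the sources used here. Exact matches of at least 50 bases elsewhere covered 95.7% of the Pgk1 mRNA, 72.9% of Pkm, 65.3% of Ldha, 54.8% of Gpi1 and 39.6% of Aldoa. They covered 1.66% of Pfkl, and none of Slc2a1, Hk1, Hk2 or Pfkp. The levels of the first 5 of these genes are therefore uncertain, and any place in the order that involves them. The same holds for Gapdh, which was listed at 4.86 to 5.79 CPM in the 4 libraries and has matches over 94.2% of its mRNA. The assembled loci of Pfkl and Pfkp overlap an opposite-strand locus, AK192985 by 463 bp and Pitrm1 by 285 bp, and whether the counting used strand is not given in the sources used here.

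**Figure D1:**
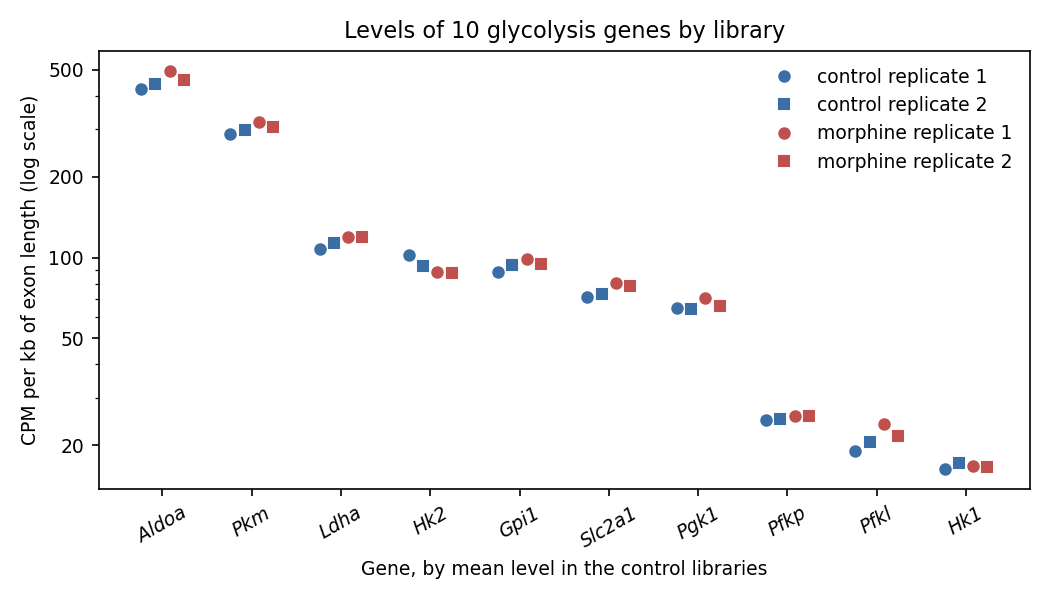
Level of each of the 10 glycolysis genes in the 4 RNA-Seq libraries, as TMM-normalized CPM per kb of exon length of the assembled locus on a log axis. Points are single libraries (blue control, red morphine; circles replicate 1, squares replicate 2), ordered by the control mean from Aldoa (435 CPM per kb) to Hk1 (16.7); only Hk2 and Gpi1 overlap in the control libraries.

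The question of the comparison was which transcripts differ after 24 h of morphine. None of the 10 glycolysis genes passed an adjusted p of 0.05 in edgeR's quasi-likelihood test, against 1.52% of the 20350 tested loci, of which 0.614% rose and 0.904% fell. At an unadjusted p under 0.05, 5 of the genes were higher after morphine (Slc2a1, Pfkl, Aldoa, Pkm, Ldha) and 1 was lower (Hk2), where the background was 9.70% of loci higher and 10.8% lower. Counted anew over the 10 genes, the number under this p was 0 without control replicate 1 (12.4% of all loci in either direction), 1 without morphine replicate 1 (9.25%) and 7 without control replicate 2 (20.8%), against 6 and 20.5% with all libraries. With trends on exon length and GC content removed it was 2 (12.5% of all loci), Hk2 and Pfkp, of which Pfkp was not among the first 6. In 8 of the 10 genes the lower morphine library exceeded the higher control library, as in 26.0% of all tested loci, and in Hk2 the morphine libraries were both below the controls, as in 26.8%. Hk1 was the only gene of the 10 whose groups overlapped. The median log2 fold change of the 10 genes was 0.09, beside 0.0013 for all tested loci, and their fold changes ran from −0.15 to 0.20. The genes were chosen with earlier results of these data known, so these counts are descriptions.

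The glucose transporter Slc2a1 had 184 and 189 CPM in control replicates 1 and 2 and 207 and 202 CPM in morphine replicates 1 and 2. Both morphine libraries were higher by more than the controls differed from each other. The log2 fold change was 0.14 ± 0.05 (SE), a difference of 9.81%, with an edgeR adjusted p of 0.14. With the trends on exon length and GC content removed it was 0.03 (edgeR adjusted p = 0.78).

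Hk2 was the gene of the 10 with the lowest fold change. Hk2, whose product binds mitochondria and is the inducible form in many tissues, had 563 and 514 CPM in the controls and 489 and 483 CPM after morphine. The groups did not overlap, but the gap between them, from 514 to 489 CPM, was smaller than the gap between the control libraries. Its log2 fold change was −0.15 ± 0.05 (edgeR adjusted p = 0.12), and −0.09 when control replicate 1 was left out. Hk1, the widely expressed form, had 123 and 129 CPM in the controls and 126 and 125 CPM after morphine, with a log2 fold change of −0.0042 ± 0.05 (edgeR adjusted p = 0.98) and a 95% interval from −0.11 to 0.11.

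The ratio of Hk2 to Hk1, per kb of the assembled loci, was 6.27 and 5.44 in the controls and 5.29 and 5.27 after morphine. Its size depends on the length used. Per kb of annotated mRNA the control means were 97.7 CPM for Hk2 and 34.7 CPM for Hk1. Both morphine ratios were below both control ratios, by 0.14 on average on the log2 scale with a pooled SD of 0.10. The difference was −0.04 without control replicate 1 and −0.25 without control replicate 2. An exact two-sided permutation test of 2 against 2 libraries gave p = 0.333, the smallest it allows.

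Gpi1, the isomerase between hexokinase and phosphofructokinase, had 469.9 and 501 CPM in the controls and 524 and 502 CPM after morphine. Control replicate 2 and morphine replicate 2 were almost at the same level. The log2 fold change was 0.08 ± 0.05, with a 95% interval from −0.02 to 0.18 and an edgeR adjusted p of 0.36. It ran from 0.03 without control replicate 1 to 0.13 without control replicate 2, and was 0.05 without morphine replicate 1.

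Pfkl showed the highest fold change of the 10 genes in edgeR's quasi-likelihood fit. With the trends on length and GC content removed the highest was that of Pfkp (0.13, against 0.09 for Pfkl). Pfkl had 110.0 and 119 CPM in the controls and 138 and 126 CPM after morphine, a log2 fold change of 0.20 ± 0.06 or 14.97% (edgeR adjusted p = 0.099). Morphine replicate 1 stood well above the other 3 libraries, and the fold change was 0.13 without it. The second phosphofructokinase gene, Pfkp, was almost level, with 249 and 252 CPM in the controls and 258 and 259 CPM after morphine (log2 fold change 0.05 ± 0.04, edgeR adjusted p = 0.59).

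The log2 ratio of Pfkp to Pfkl, per kb of the assembled loci, was 0.38 and 0.28 in the controls and 0.10 and 0.25 after morphine. Its size, too, depends on the length used. Per kb of annotated mRNA the control means were 93.3 CPM for Pfkp and 30.7 CPM for Pfkl. Both morphine ratios were lower, by 0.15 on average with a pooled SD of 0.09, and by 0.08 without morphine replicate 1. With the trends on length and GC content removed, the fold change of Pfkp (0.13) exceeded that of Pfkl (0.09), so the direction of this shift turned. The exact permutation p was again 0.333, the smallest possible.

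The 4 genes below phosphofructokinase all had positive fold changes, which for Aldoa and Pkm turned negative once trends with length and GC content were removed. Aldoa, the most abundant of the 10 transcripts per kb, had 776 and 809 CPM in the controls and 906 and 838 CPM after morphine (log2 fold change 0.14 ± 0.05, edgeR adjusted p = 0.14). Morphine replicate 1 was again the highest library, and the fold change was 0.08 without it. Pgk1 had 119 and 118 CPM in the controls and 128 and 120.1 CPM after morphine (log2 fold change 0.07 ± 0.05, edgeR adjusted p = 0.47), so that morphine replicate 2 lay only just above the controls. The Pgk1 fold change was 0.02 without morphine replicate 1 and 0.12 without morphine replicate 2.

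Pkm, the gene with the most counts of the 10, had 1118 and 1160 CPM in the controls and 1246 and 1192 CPM after morphine (log2 fold change 0.10 ± 0.04, edgeR adjusted p = 0.21). The morphine libraries were both higher, and the step from the higher control to the lower morphine library was smaller than that between the controls. The table counts all Pkm isoforms of the locus together. Ldha had 237 and 249 CPM in the controls and 263 and 262 CPM after morphine (log2 fold change 0.11 ± 0.05, edgeR adjusted p = 0.21), and here the morphine libraries nearly coincided. The Ldha fold change was 0.07 without control replicate 1.

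Summed over the 10 genes, the level was 3948 and 4040 CPM in the controls and 4285 and 4108 CPM after morphine. This was 0.390% and 0.403% of all counts in the controls and 0.432% and 0.412% after morphine. Morphine replicate 1 was highest in the sum and in 7 of the 10 genes, as the plot of each library relative to the control mean shows.

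**Figure D2:**
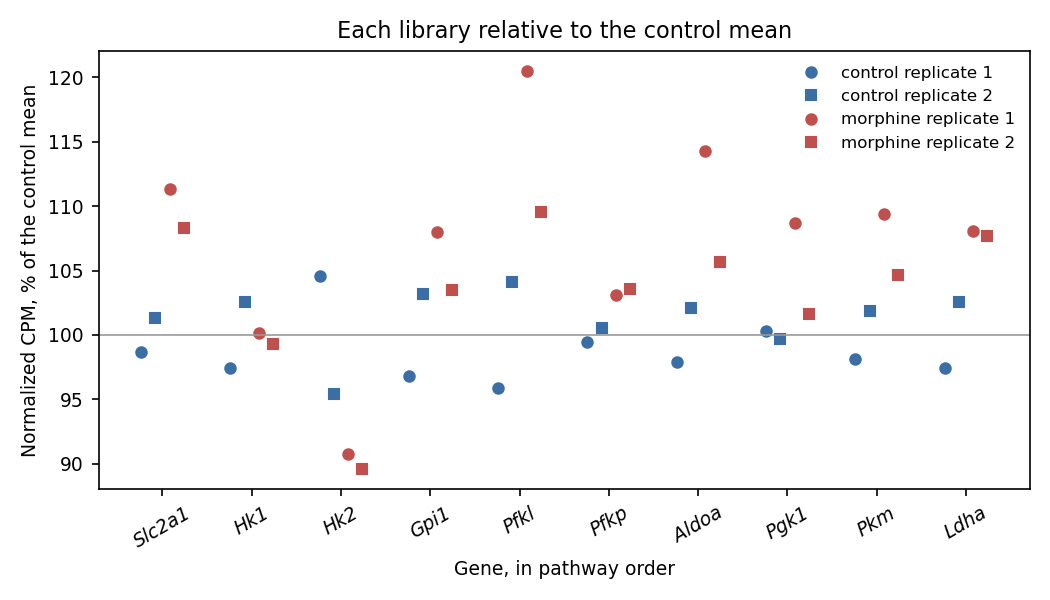
TMM-normalized CPM of each glycolysis gene in each RNA-Seq library as a percentage of the mean of the 2 control libraries (grey line, 100%). Points are single libraries (blue control, red morphine; circles replicate 1, squares replicate 2); red points lie above blue points in 8 genes, below in Hk2 and between them in Hk1.

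Fold changes in these libraries moved with base composition. Across the tested loci, Spearman's rho of log2 fold change with GC content was 0.48, a description over loci that share the same 4 libraries, and with exon length it was −0.14. The median GC content of the 10 genes was 54.1%, against 49.7% for all tested loci. With the trends on length and GC removed, the median log2 fold change of the 10 genes was 0.03 and 6 of the 10 were positive, and again none was called by edgeR. Without the trends Pfkl had 0.09 (edgeR adjusted p = 0.45), Slc2a1 0.03, Ldha 0.03 and Gpi1 0.03, Hk1 went from −0.0042 to −0.07, while Aldoa and Pkm turned to −0.01 each. Hk2 went from −0.15 to −0.17 (edgeR adjusted p = 0.094), and Pfkp, the gene of lowest GC content among the 10, went from 0.05 to 0.13 (edgeR adjusted p = 0.14).

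**Figure D3:**
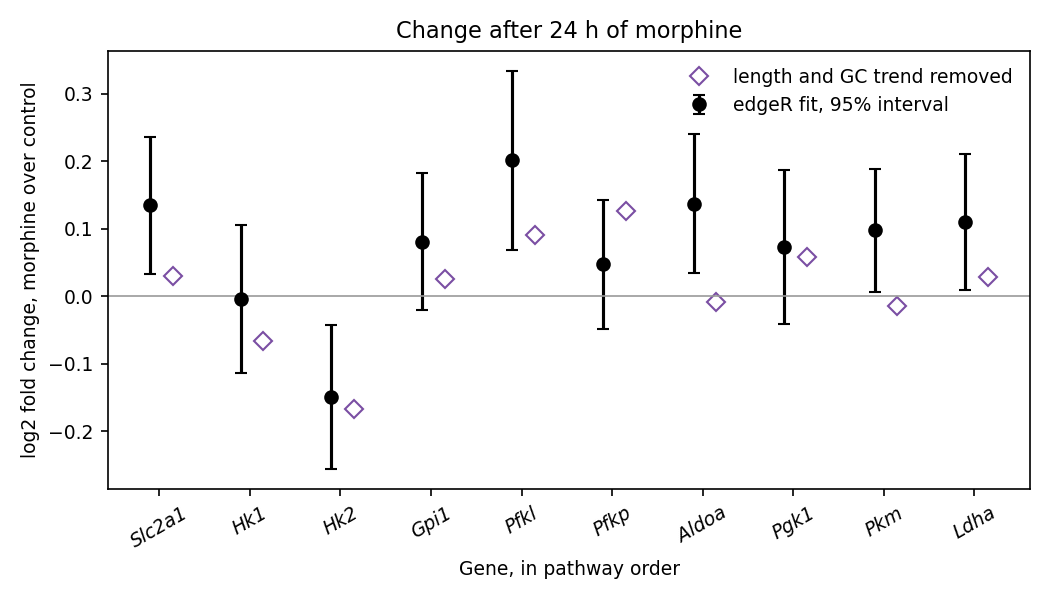
Log2 fold change (morphine over control) of each glycolysis gene from the edgeR fit (black, bars are 95% intervals; 2 libraries a condition) and with the trends on exon length and GC content removed (open diamonds, no interval shown). Slc2a1, Gpi1, Aldoa, Pkm and Ldha come close to 0 without the trends, Hk1 moves away from it to −0.07, and Hk2 goes from −0.15 to −0.17.

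The calls depended on the test and its filter for 3 of the genes. DESeq2 called Pfkl (adjusted p = 0.048) and no other gene of the 10, against 3.20% of loci. Without the filter on low counts, edgeR called Pfkl (adjusted p = 0.018) and Aldoa (0.0496) as higher and Hk2 (0.021) as lower, against 5.44% of loci. Without control replicate 2, edgeR called Pfkl (log2 fold change 0.27, adjusted p = 0.0076) and Hk2 (−0.21, adjusted p = 0.024), against 7.67% of loci. No gene of the 10 was called by edgeR when any of the other 3 RNA-Seq libraries was left out.

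The other genes of the pathway were taken from fixed lists. Of 18 other glycolytic enzyme genes, 15 were tested, 1 rose and none fell by edgeR's adjusted p. At an unadjusted p under 0.05 there were 6, all higher, and the list had a median log2 fold change of 0.13. Over all tested loci 9.70% were higher and 10.8% lower at this p, with a median of 0.0013, also for the lists below. The 6 had a GC content of 51.7% to 55.2%, against a median of 49.7% for all tested loci. Whether base composition has a part in this or the later counts was not tested. The gene that rose was Aldoc, the brain-type aldolase, at 6.44 and 5.67 CPM in the controls and 11.7 and 10.3 CPM after morphine (log2 fold change 0.86 ± 0.12, edgeR adjusted p = 0.0099). Its morphine libraries were far above the controls, and its control level, 2.02 CPM per kb, was far under the 435 CPM per kb of Aldoa. Aldoc was not called without morphine replicate 1 (log2 fold change 0.77, edgeR adjusted p = 0.17), and DESeq2 gave it no adjusted p.

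Pfkm, the third phosphofructokinase gene, had 69.9 and 73.5 CPM in the controls and 82.1 and 82.9 CPM after morphine (log2 fold change 0.20, edgeR adjusted p = 0.077). Tpi1, which interconverts the products of aldolase, had a log2 fold change of 0.19 (edgeR adjusted p = 0.085), and Eno1, the main enolase, of 0.13 (edgeR adjusted p = 0.14). Neither passed the test. Pgam1, a mutase, was near level at 0.05, and so was Gapdh at −0.05. Exact matches elsewhere covered 97.7% of the Pgam1 mRNA, 85% of Eno1 and 42.8% of Tpi1, so these genes are uncertain too, as is Gapdh.

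Among 9 tested transporter and lactate dehydrogenase genes of 12, none was called by edgeR, with none higher and 1 lower at an unadjusted p under 0.05. Slc2a3, which encodes the high-affinity transporter GLUT3, had 1643 and 1638 CPM in the controls and 1624 and 1646 CPM after morphine, a log2 fold change of −0.01 ± 0.04. Per kb of the assembled loci it stood above Slc2a1 in the controls, at 253 against 72.3 CPM per kb. Ldhb, the heart-type lactate dehydrogenase, had a log2 fold change of 0.02, with exact matches elsewhere over 77.5% of its mRNA. The lowest unadjusted p belonged to Slc16a1, which encodes the lactate exporter and importer MCT1, at 175 and 165 CPM in the controls and 142 and 151 CPM after morphine (log2 fold change −0.22 ± 0.05, edgeR adjusted p = 0.062).

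Of 13 regulators of glycolytic flux, none was called by edgeR. At an unadjusted p under 0.05 there was 1 higher and 1 lower, and the lowest p was that of Pdk1, a kinase that restrains pyruvate dehydrogenase (log2 fold change −0.14, edgeR adjusted p = 0.13). None of 8 genes of pyruvate entry into mitochondria was called or had an unadjusted p under 0.05, and Dld, the shared dehydrogenase subunit of the complex, had −0.11 (edgeR adjusted p = 0.30). None of 13 tested genes of the pentose phosphate and branch pathways was called, with 2 higher and 2 lower at an unadjusted p under 0.05, and Gfpt1, the entry enzyme of hexosamine synthesis, had −0.18 (edgeR adjusted p = 0.12). None of 4 tested gluconeogenesis genes was called or had an unadjusted p under 0.05, and Fbp1 had 0.33 (edgeR adjusted p = 0.33) at 2.17 to 2.81 CPM.

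Of 13 transcription factors and oxygen sensors, 1 rose and none fell by edgeR's adjusted p. At an unadjusted p under 0.05 there were 3 higher and 2 lower. The lower ones were Hif1a (log2 fold change −0.14, edgeR adjusted p = 0.20) and Arnt (−0.12, edgeR adjusted p = 0.23). The higher ones were Myc, Egln2 (0.18, edgeR adjusted p = 0.13) and Mlxipl (0.47, edgeR adjusted p = 0.14). Myc had 47.3 CPM in both controls and 57.6 and 55.5 CPM after morphine (log2 fold change 0.26 ± 0.06, edgeR adjusted p = 0.04996). The call sat at the threshold. It was lost without control replicate 1 (log2 fold change 0.25), morphine replicate 1 (0.23) or morphine replicate 2 (0.29), where the fold change stayed close to 0.26, and with the length and GC trends removed (log2 fold change 0.17, edgeR adjusted p = 0.16). Among 18 other HIF target genes tested none was called, with 4 higher and 1 lower at an unadjusted p under 0.05. Their median log2 fold change was −0.002. The lower one was again Pdk1, and 1 of the higher ones was Pfkfb4; both, and Pfkfb3, are also in the list of flux regulators, and Egln3 is also among the oxygen sensors.

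**Figure D4:**
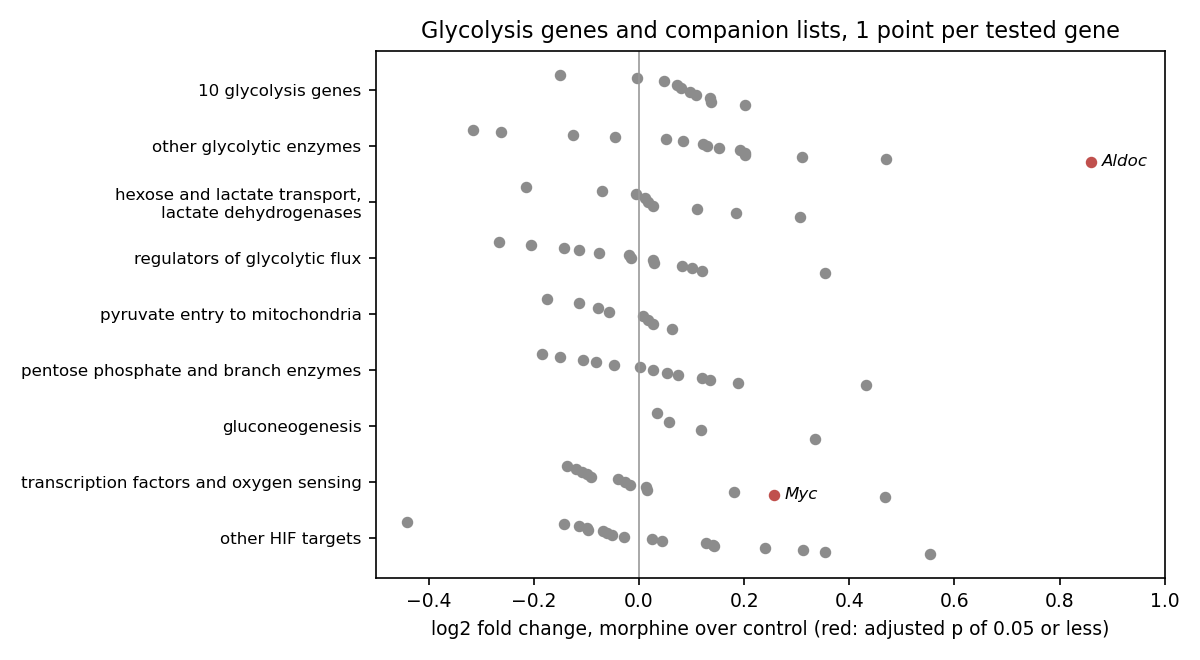
Log2 fold change (morphine over control, edgeR) of each tested gene, 1 point a gene, for the 10 glycolysis genes and the companion lists. Red points passed an adjusted p of 0.05 (Aldoc at 0.86 and Myc at 0.26), grey points did not.

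Of the glycolysis genes, 9 of 10 had no H3K27me3 peak at a promoter. Of the 10, Hk2 alone had a peak within 1 kb of a start site (GENCODE vM21), in 3 of the 4 ChIP-Seq libraries, so that the share of the 10 genes with such a peak was 10% or 0% per library. Of all protein-coding genes 16.4 to 17.4% had one, and of those with a tested locus 20.4 to 21.8%. The other 9 genes had no peak within 3 kb of a start or in the gene body in any library, and their nearest peak was at least 23.7 kb away. The peak lists give no number of reads, so a missing peak is a missing call and not a measured absence of the mark.

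The Hk2 peak lay just upstream of the start site at chr6:82774454. It covered chr6:82774695-82776647 in control replicate 1 with a score of 85.8 (−10 times the log10 of the authors' p-value), chr6:82774693-82777665 in control replicate 2 with a score of 163, and chr6:82774676-82777699 in morphine replicate 2 with a score of 66.99. Its near edge was thus 241, 239 and 222 bp upstream of the start, so that the peaks covered the first 10, 12 and 29 bases of the Hk2 sequence shown above, and it overlapped no annotated gene. In morphine replicate 1 the nearest peak was 174 kb away. This library had the fewest peaks (8681, against 10305 to 13778 in the others). It had a promoter peak at 16.7% of protein-coding genes, against 16.4 to 17.4% in the others. The call was thus present in both control libraries and in 1 of the 2 morphine libraries.

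Beside this peak, Hk2 transcripts were at 88.1 CPM per kb after morphine and 97.7 CPM per kb in the controls, in RNA-Seq libraries that are not the same samples. Of the 99 companion genes, 18.2 to 25.3% per library had a promoter peak. Myc had one in all 4 libraries, as did Eno2, which encodes a neuronal enolase.

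**Figure D5:**
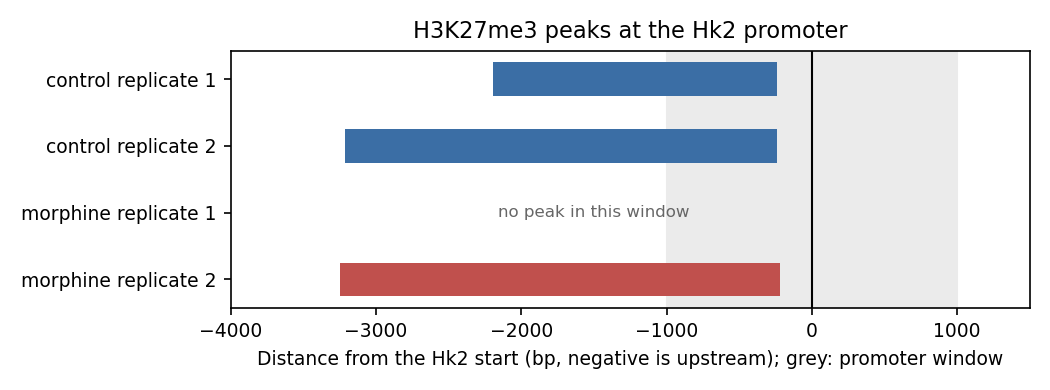
H3K27me3 peaks around the Hk2 start in the 4 ChIP-Seq libraries, as distance from the start in bp, with negative values upstream and the promoter window of 1 kb on either side in grey. Bars span the called peaks (blue control, red morphine); peaks begin 222 to 241 bp upstream of the start in 3 libraries and morphine replicate 1 has none.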

How the data were processed

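RNA-Seq (poly(A) libraries) and H3K27me3 ChIP-Seq were made from mESCs with vehicle or 10 µM morphine for 24 h, 2 libraries each, grouped by the sample labels. The authors deposited raw counts per assembled locus, not normalized; per the submitters' processing notes and the methods they used Trim Galore 0.6.2, HISAT2 2.1.0, StringTie 1.3.6 and featureCounts 1.6.4 on mm10. Totals were 25081266 to 29531096 counts, of which 1.88 to 2.40% lay on loci with no gene name, which were kept. The authors called peaks with MACS per library (Bowtie2 2.3.5.1, p-value of 1e-05), and deposited a score per peak, −10 × log10 of the p-value.

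After filterByExpr and TMM scaling, counts of all loci were tested together by edgeR's quasi-likelihood test with Benjamini-Hochberg adjustment (edgeR 4.0.16, R 4.3.3). Intervals use the t distribution on the degrees of freedom of the fit. The locus was that whose most frequent gene name was the symbol; where several matched, the one with the most counts was used. DESeq2 1.42.0, other scalings, no filter, an FDR of 0.01, a replicate block, removal of length and GC trends (natural splines with 5 degrees of freedom) and leaving out each library were alternatives. Levels per kb of annotated mRNA were added after seeing the data. Of genes with the same symbol, 99.53% of loci overlapped the GENCODE vM21 gene. Copies were sought with BLAST 2.17.0. Analysis steps were tested on simulated data. Each list's named genes were those past an adjusted p of 0.05 (at most 3 a direction), or else the one with the lowest p, with Tpi1, Gapdh, Pgam1, Eno1, Slc2a3, Pfkm, Aldoc and Ldhb always named. Pou5f1, Tfcp2l1, Pfkfb3, Pfkfb4, Egln3, Eno2, Hif1a, Arnt, Egln2 and Mlxipl were named after their values were seen. The 10 genes and all lists were chosen with earlier results of these data known. Of the 99 listed genes, Pgls had no matching locus.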

Additional observations from a re-analysis of the deposited data

How the results depend on the processing

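The number of glycolysis genes called, 0 by edgeR's quasi-likelihood test (6 at an unadjusted p under 0.05, and 0 to 7 over the alternatives), was 1 with DESeq2 (Pfkl), 3 without the filter on low counts (Hk2, Pfkl, Aldoa) and 0 to 2 when a library was left out. The exact test, the likelihood ratio test, RLE and total-count scaling, an FDR of 0.01 and removal of the length and GC trends called none. Of the companion genes, the quasi-likelihood test called 2 higher and 0 lower. The exact and likelihood ratio tests each called 2 higher and 1 lower, and DESeq2 called 1 higher and 1 lower. The count of companion genes called, 2, was 5 without the filter, 1 at an FDR of 0.01, 1 with the trends removed and 0 to 7 with a library left out. The count of all loci called, 309, was 790 by the exact test, 840 by the likelihood ratio test, 652 by DESeq2, 515 on total counts, 1657 without the filter, 24 at an FDR of 0.01, 100 with the trends removed, and 13 (without morphine replicate 1) to 1619 (without control replicate 2) with a library left out. Of the called loci 40.5% rose, against 54.6% on total counts, 61.0% with the trends removed, 62.5% at an FDR of 0.01, and 30.3% (without morphine replicate 2) to 76.9% (without morphine replicate 1) with a library left out. Of 140 fold changes of the 10 genes over the alternatives, 7 changed sign: Hk1 (−0.0042) on total counts (0.0155), without control replicate 2 (0.04) and without morphine replicate 2 (0.0026), with a range of −0.045 to 0.04 over the libraries left out, and Aldoa (−0.0089) and Pkm (−0.0146) with the trends removed, each without and with the replicate block. The cause of these moves was not tested.

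The replicate numbers pair nothing that the labels state, and the deviations of same-numbered RNA-Seq libraries correlated at 0.01. With the replicate number as a block, no glycolysis gene and 1128 loci were called, and with the block and the trends removed 1 glycolysis gene (Hk2, adjusted p = 0.0070) against 2.26% of loci, 460 in all; Aldoa was then −0.0091 and Pkm −0.0146.

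With a peak score of at least 100, the Hk2 promoter peak remained in control replicate 2 but in 0 genes in control replicate 1 and 0 in morphine replicate 2. The number of the 10 genes with a promoter peak in every morphine library was 0, and 0 to 1 with a morphine library left out. With 2 libraries a condition, no permutation test of a single value can go below 0.333. Baseline levels moved by more than the control SD in 8 of 10 genes per kb of annotated mRNA, and for Pgk1 on total counts (64.2 against 64.7 CPM per kb).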
